A study of Arabidopsis thaliana with 6 samples.

Results

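Transcripts of 10 genes of branched-chain amino acid breakdown and of the electron route it feeds were followed in whole Arabidopsis thaliana seedlings. The genes were picked by locus identifier and made up 10 of 33602 loci in the table: BCAT2, DIN4, DIN3, IVD, MCCA, MCCB, D2HGDH, the ETF alpha and ETF beta subunits, and ETFQO. The wild type was Col-0, and cfm6-1, the 1 mutant line studied, is in the same background that the labels give as CFM6-/-; the kind of allele is not stated. Each genotype had 3 libraries, described as biological replicates, from seedlings 14 days after germination. Plants of both genotypes grew on half-strength MS medium with 1% sucrose at 22 °C in long days (light for 16 h, dark for 8 h). CFM6 is known as a splicing factor for a transcript of mitochondrial complex I. The comparison asked how transcript levels in cfm6-1 differ from those in wild type.

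Leucine, isoleucine and valine lose their amino group to an aminotransferase, and the resulting oxoacids are oxidised in mitochondria by a branched-chain oxoacid dehydrogenase complex (BCKDH). Isovaleryl-CoA dehydrogenase and other flavin dehydrogenases then hand their electrons to the electron transfer flavoprotein (ETF), a dimer of an alpha and a beta subunit. ETF passes them to ETF:ubiquinone oxidoreductase (ETFQO), which reduces ubiquinone without complex I. In Arabidopsis the pathway is best known from plants in prolonged darkness, where amino acids replace sugars as a fuel for respiration, and DIN3 and DIN4 take their names from that response (dark inducible).

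Upstream sequences are shown for the aminotransferase pair with large falls, BCAT2 and its neighbour BCAT1, and for the carboxylase subunit MCCA. MCCA had the second largest fall of the 10 members. Each is the 250 bases before the RefSeq gene start in TAIR10.1, written 5′ to 3′ on the strand of the gene, with every ACGT in capitals. ACGT is the core of the sites bound by plant bZIP transcription factors.
BCAT2 (chr1:3287837-3288086, plus strand): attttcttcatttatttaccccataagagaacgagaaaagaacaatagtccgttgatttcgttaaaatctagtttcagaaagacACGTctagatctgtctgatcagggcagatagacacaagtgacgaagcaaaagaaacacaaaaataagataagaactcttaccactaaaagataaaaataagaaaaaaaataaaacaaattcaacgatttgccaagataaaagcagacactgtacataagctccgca
BCAT1 (chr1:3283823-3284072, plus strand): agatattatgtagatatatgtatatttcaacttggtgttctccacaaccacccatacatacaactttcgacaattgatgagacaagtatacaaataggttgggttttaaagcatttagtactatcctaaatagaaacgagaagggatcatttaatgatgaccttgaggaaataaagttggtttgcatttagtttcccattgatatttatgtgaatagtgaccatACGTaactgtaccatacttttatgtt
MCCA (chr1:739294-739543, plus strand): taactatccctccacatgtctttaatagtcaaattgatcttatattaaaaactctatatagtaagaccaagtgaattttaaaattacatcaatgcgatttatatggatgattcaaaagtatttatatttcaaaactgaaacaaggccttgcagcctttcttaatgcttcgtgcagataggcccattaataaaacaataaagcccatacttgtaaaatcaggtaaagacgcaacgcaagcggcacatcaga
ACGT, which reads the same on both strands, stood in the window of 5 of the 10 members and in 44.4% of 19323 tested protein-coding genes. The G-box CACGTG, which contains ACGT, stood in none of the 10 and in 7.27% of those genes, and ACTCAT, searched on both strands, in none and in 11.8%. A window of this size says nothing about sites farther away. The windows of DIN4, MCCB, D2HGDH, ETF alpha and ETFQO reach into a neighbouring gene. Of the members with ACGT, only BCAT2 has a window free of one.

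The libraries had a depth of 47.3 to 52.8 M reads (M stands for 1e6), worked out from the smallest steps in the table. Of 33602 loci, 20047 were tested (1 RPKM or more in 3 or more libraries, RPKM being reads per kilobase and per M reads), all 10 members included. The locus taken as CFM6, AT4G13070, annotated with a CRM domain, had 3.69 to 4.10 RPKM in wild type libraries against 1.23 to 1.32 in the mutant. Most tested loci differed between the genotypes: in cfm6-1, 30.2% were lower and 38.6% higher (limma, threshold 0.05 on the adjusted p). Counts within the marker and gene lists below are to be read beside these shares. Leaf and shoot markers summed to 25828 to 29905 RPKM in wild type and 15770 to 17201 in cfm6-1, with all 6 lower. Root markers summed to 1689 to 1898.5 and 2276 to 2711 RPKM; PYK10 made up 95.6% and 98.2% of those sums, 1 of 7 genes was higher and 4 were lower. Leaf senescence markers summed to 749 to 832 and 188 to 241 RPKM, with 3 of 4 tested genes lower; SEN1 made up 89.5% and 69.9% of those sums, and without it they were 70.2 to 91.3 and 61.3 to 66.5 RPKM. Seed markers summed to 0.06 to 0.09 and 0.41 to 2.10 RPKM, with OLEO1 and CRU3 at 0 in every wild type library. The part of these differences in the results below was not tested, and in whole seedlings fewer cells of a type cannot be told apart from less RNA per cell.

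Of the 10 members, 8 were lower in cfm6-1 and none was higher, against the 30.2% of all tested loci that were lower. Members and lists were chosen with earlier results of these data known, so counts within them are descriptive only. All 6 members from the aminotransferase to methylcrotonyl-CoA carboxylase fell, and so did ETFQO, while the ETF subunits between them were not called. The median log2 difference of the 10 was -1.18, against 0.05 for all tested loci, and 6 of the 10 fell by at least 1 on the log2 scale, a size that 4.72% of tested loci reached with a call. Summed over the 10 members, the level went from 565 ± 73.0 RPKM in wild type to 219 ± 11.1 in cfm6-1 (mean ± SD, n = 3), 38.8% of wild type. Differences and their errors below are on the log2(RPKM + 1) scale from the fit across all tested loci, and percentages are ratios of mean RPKM. The 2 genotypes did not overlap in any of the 8 genes called lower, as in 32.8% of tested loci.

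**Figure D1:**
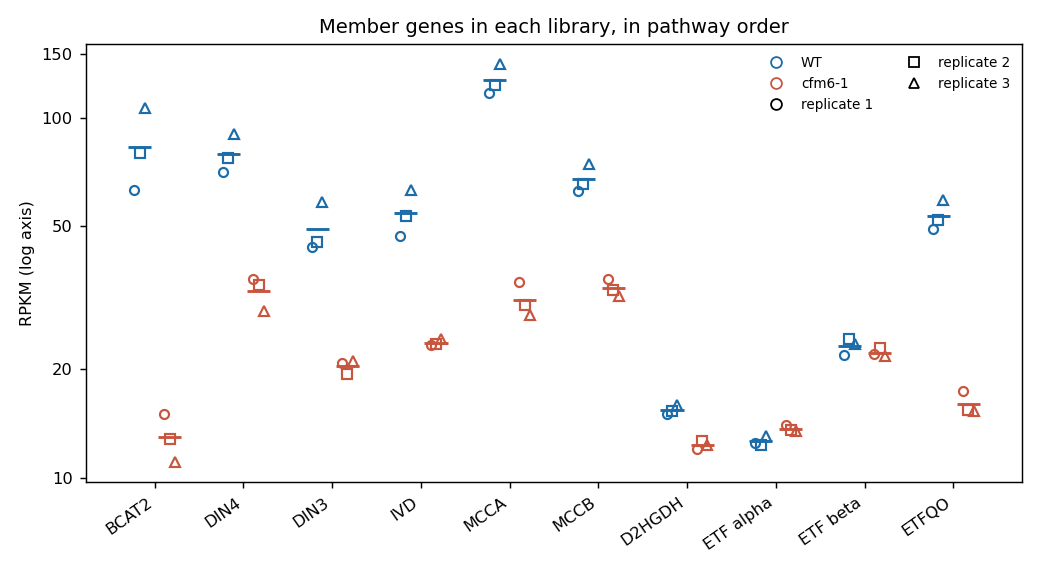
RPKM of the 10 members in each library, on a log axis and in pathway order, with circles, squares and triangles for replicates 1 to 3 and a line at the mean of each genotype. The wild type values lie above the cfm6-1 values from BCAT2 to D2HGDH and at ETFQO, and the genotypes lie close together at ETF alpha and ETF beta.

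BCAT2 (AT1G10070, chromosome 1, 3288087 to 3290471 in TAIR10.1, plus strand), an aminotransferase of leucine, isoleucine and valine, had the largest fall of the 10. The wild type libraries (replicates 1 to 3, in that order for every gene) held 62.9, 79.8 and 106.6 RPKM, those of cfm6-1 15.1, 12.8 and 11.04. The lowest wild type library was far above the highest cfm6-1 library, although the wild type libraries differed more among themselves than for any other member. The level in cfm6-1 was 15.6% of wild type, a log2 difference of -2.57 (SE 0.19, limma adjusted p = 2.92e-05), the 64th largest fall among the 20047 tested loci. The reference annotation places this enzyme in the chloroplast.

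The neighbouring gene BCAT1 (AT1G10060), annotated as the mitochondrial aminotransferase, ends 794 bases before BCAT2 begins, on the same strand. Its level was an order lower, at 7.89, 7.19 and 7.88 RPKM in wild type and 1.45, 1.88 and 1.75 in cfm6-1. BCAT1 fell to 22.1% of wild type, by 1.69 on the log2 scale (SE 0.08, limma adjusted p = 5.77e-06). Together the pair summed to 90.7 ± 22.1 RPKM in wild type and 14.7 ± 1.87 in cfm6-1 (n = 3). The other aminotransferases of the family were split: of the 5 listed beside BCAT2, 1 fell (BCAT1), 1 rose and 3 were not called. BCAT3, a plastid enzyme, rose 1.21-fold (limma adjusted p = 0.00322). BCAT4, which acts in methionine chain elongation for glucosinolates, was at 85.7 ± 17.9 and 120 ± 24.9 RPKM (limma adjusted p = 0.0586), with a multiply mapped share of reads of up to 0.234.

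BCKDH has E1 alpha and E1 beta subunits that decarboxylate the oxoacid, an E2 core that transfers the acyl group to coenzyme A, and an E3 subunit that it shares with other oxoacid dehydrogenases. DIN4 (AT3G13450, chromosome 3, 4382198 to 4384436, minus strand) encodes an E1 beta subunit. It was at 70.6, 77.2 and 90.3 RPKM in wild type and 35.6, 34.2 and 29.1 in cfm6-1. That is 41.5% of wild type, a log2 difference of -1.24 (SE 0.11, limma adjusted p = 5.48e-05). DIN3 (AT3G06850, chromosome 3, 2157908 to 2160669, minus strand) encodes the E2 core. Its levels were 43.7, 45.3 and 58.4 RPKM in wild type and 20.9, 19.5 and 21.1 in cfm6-1, with wild type replicate 3 set above the others. DIN3 fell to 41.7% of wild type, by 1.21 on the log2 scale (SE 0.11, limma adjusted p = 6.23e-05).

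DIN4 was 1.62 ± 0.0793 times the level of DIN3 in wild type and 1.61 ± 0.206 times in cfm6-1 (n = 3), and the genotypes overlapped in this ratio (two-sided exact permutation p = 0.9). The other subunits were read from a list of 5 genes, of which 3 fell, 1 rose and 1 was not called. AT1G21400, listed as E1 alpha, fell from 102 ± 22.8 to 23.6 ± 0.908 RPKM (23.1% of wild type, limma adjusted p = 2.46e-05). Its paralogue AT5G09300 was far lower, at 3.25 ± 0.325 and 1.65 ± 0.326 RPKM (limma adjusted p = 0.000910), so AT1G21400 held 96.8% of the E1 alpha RPKM in wild type and 93.5% in cfm6-1. BCDH BETA1, the other E1 beta gene, fell to 49.4% of wild type (limma adjusted p = 6.19e-05), and DIN4 held 73.3% and 69.7% of the E1 beta RPKM.

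Neither of the E3 genes was called lower. mtLPD1 had 116 ± 5.32 RPKM in the wild type libraries and 111 ± 0.819 in the mutant (limma adjusted p = 0.277), with a 95% interval of the log2 difference from -0.18 to 0.05. mtLPD2 rose 1.33-fold, from 58.3 ± 0.529 to 77.6 ± 2.69 RPKM (limma adjusted p = 0.000147). These lipoamide dehydrogenases also serve pyruvate dehydrogenase, 2-oxoglutarate dehydrogenase and glycine decarboxylase.

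**Figure D2:**
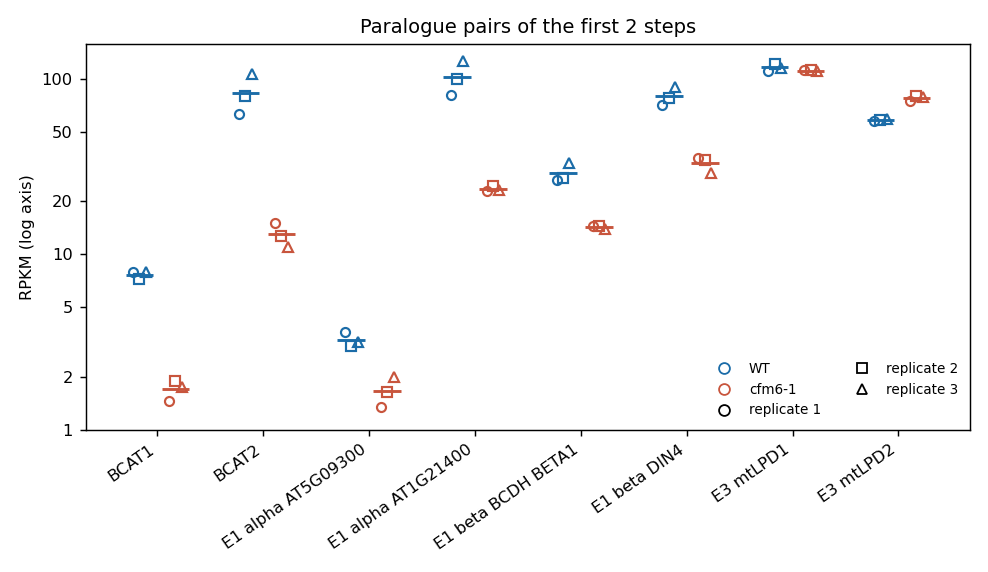
RPKM per library, on a log axis, of gene pairs for the aminotransferase step and for the E1 alpha, E1 beta and E3 subunits of the oxoacid dehydrogenase complex. Marker shapes are replicates and lines are genotype means; each gene of the BCAT1 and BCAT2, E1 alpha and E1 beta pairs is lower in cfm6-1 whatever its level, while mtLPD1 overlaps and mtLPD2 is higher.

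After the complex, the leucine branch goes on through isovaleryl-CoA dehydrogenase and methylcrotonyl-CoA carboxylase. IVD (AT3G45300, chromosome 3, 16621452 to 16625043, minus strand), the dehydrogenase, was at 47.0, 53.3 and 62.9 RPKM in wild type and 23.3, 23.5 and 24.3 in cfm6-1. The cfm6-1 libraries were within a narrow band and the wild type libraries spread well above it. IVD fell to 43.6% of wild type, by 1.15 on the log2 scale (SE 0.10, limma adjusted p = 5.14e-05).

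MCCA (AT1G03090, chromosome 1, 739544 to 744184, plus strand), the biotin-carrying subunit of the carboxylase, had the highest level of the 10 in wild type. It was at 117, 123 and 141 RPKM there and at 34.97, 30.2 and 28.4 in cfm6-1. MCCA fell to 24.5% of wild type, by 1.99 on the log2 scale (SE 0.10, limma adjusted p = 6.31e-06). Its partner MCCB (AT4G34030, chromosome 4, 16301027 to 16304099, plus strand), the other subunit of the enzyme, was at 62.6, 65.6 and 74.4 RPKM in wild type and 35.7, 33.3 and 31.9 in cfm6-1. MCCB fell by less, to 49.8% of wild type (log2 difference -0.98, SE 0.07, limma adjusted p = 3.28e-05).

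The transcript ratio of the carboxylase subunits was lower in every cfm6-1 library than in any wild type library. MCCA was 1.87, 1.88 and 1.90 times the level of MCCB in wild type replicates 1 to 3, and 0.979, 0.908 and 0.890 times in cfm6-1. The genotypes were apart, with hardly any spread in wild type, and the log2 ratio differed by -1.01 (two-sided exact permutation p = 0.1, and 0.125 after adjustment over the 5 ratios computed; no lower p than 0.1 is possible with 3 libraries each). So the transcripts of a 2-subunit enzyme stood at mean ratios of 1.88 in wild type and 0.925 in cfm6-1.

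**Figure D3:**
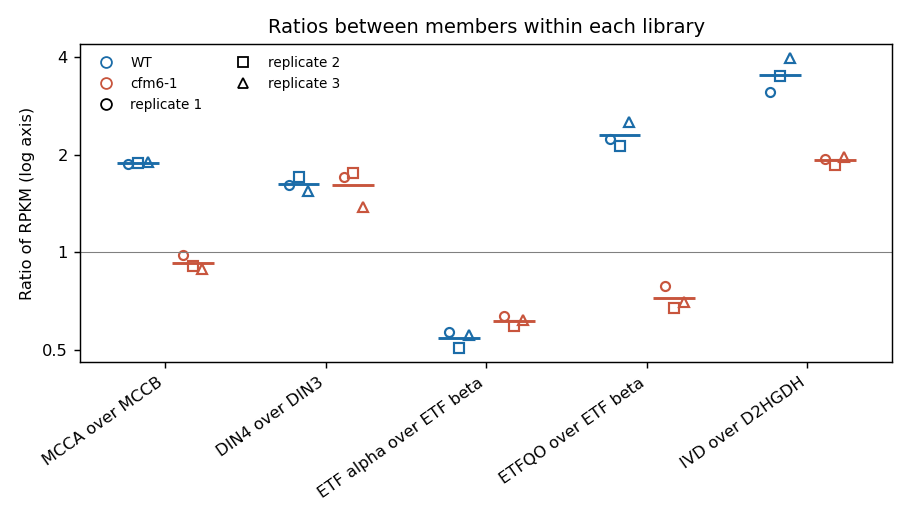
Ratio of RPKM between members in each library, on a log axis, for 5 pairs, with marker shapes for replicates and a line at each genotype's mean. MCCA over MCCB, ETFQO over ETF beta and IVD over D2HGDH are lower in every cfm6-1 library, ETF alpha over ETF beta is higher in every one, and DIN4 over DIN3 overlaps.

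D2HGDH (AT4G36400, chromosome 4, 17197188 to 17200932, plus strand) encodes D-2-hydroxyglutarate dehydrogenase, an enzyme of lysine breakdown that also gives its electrons to ETF. Its values were 15.1, 15.3 and 15.9 RPKM in wild type and 12.0, 12.6 and 12.3 in cfm6-1, a small gap with no overlap. It fell to 79.9% of wild type (log2 difference -0.30, SE 0.05, limma adjusted p = 0.000869), and 22.9% of tested loci fell further. IVD was 3.52 ± 0.418 times the level of D2HGDH in wild type and 1.93 ± 0.0558 times in cfm6-1 (n = 3, exact permutation p = 0.1, adjusted p = 0.125). The ETF donor transcripts of leucine and lysine breakdown stood nearer to each other in cfm6-1.

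ETF alpha and ETF beta form the carrier that receives the electrons of both dehydrogenases. ETF alpha (AT1G50940, chromosome 1, 18877812 to 18880012, minus strand) was at 12.5, 12.4 and 13.1 RPKM in wild type and 14.0, 13.6 and 13.5 in cfm6-1. Every cfm6-1 library was above every wild type library, as in 41.5% of tested loci, but the difference was small and missed the threshold (log2 difference 0.11, SE 0.05, limma adjusted p = 0.0706). ETF beta (AT5G43430, chromosome 5, 17453517 to 17455297, plus strand) was at 21.9, 24.4 and 23.5 RPKM in wild type and 22.0, 23.0 and 21.8 in cfm6-1. The genotypes overlapped (log2 difference -0.06, SE 0.05, limma adjusted p = 0.335), with a 95% interval from -0.18 to 0.06. After quantile normalization, which lowers the median of all tested loci to -0.02, ETF beta was called lower (log2 difference -0.13, limma adjusted p = 0.0381).

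The summed level of the ETF subunits was 35.9 ± 1.31 RPKM in wild type and 36.0 ± 0.621 in cfm6-1. ETF alpha was 0.544 ± 0.0318 of the level of ETF beta in wild type and 0.615 ± 0.0228 in cfm6-1 (n = 3, exact permutation p = 0.1, adjusted p = 0.125). A shift of that size is small beside those of the other pairs whose genotypes were apart.

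ETFQO (AT2G43400, chromosome 2, 18021109 to 18025292, plus strand), the acceptor that passes the electrons on to ubiquinone, was at 49.2, 51.9 and 59.2 RPKM in wild type and 17.4, 15.4 and 15.3 in cfm6-1. The groups were well apart. It fell to 30.0% of wild type, by 1.67 on the log2 scale (SE 0.08, limma adjusted p = 6.49e-06), the third largest fall of the 10 after BCAT2 and MCCA. ETFQO was 2.30 ± 0.198 times the level of ETF beta in wild type and 0.720 ± 0.0610 times in cfm6-1 (n = 3). By library the ratio was 2.24, 2.13 and 2.52 in wild type and 0.789, 0.672 and 0.701 in cfm6-1, so that ETFQO was above ETF beta in every wild type library and below it in every cfm6-1 library, where it was still above ETF alpha. That log2 ratio differed by -1.61 (exact permutation p = 0.1, adjusted p = 0.125).

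The order of the members by level also differed, over a narrower range in cfm6-1. In wild type MCCA was above the rest, and BCAT2, DIN4, MCCB, IVD, ETFQO and DIN3 followed in an order in which each gene overlapped the next, before ETF beta, D2HGDH and ETF alpha, each of which was apart from the gene before it. In cfm6-1 MCCB, DIN4 and MCCA were highest and each overlapped the next, and IVD, ETF beta, DIN3, ETFQO and ETF alpha followed, each apart from the gene before it. BCAT2, second in wild type, was ninth in cfm6-1, where it overlapped ETF alpha before it and D2HGDH after it. The highest member mean was 10.07 times the lowest in wild type and 2.73 times in cfm6-1.

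Libraries of wild type differed in a shared way for the genes that fell. Replicate 3 was the highest of the wild type libraries in all 8 of them, as in 34.1% of tested loci, and replicate 1 was also the lowest in all 8, as in 18.1% of tested loci. The ratio of replicate 3 to replicate 1 ran from 1.06 at D2HGDH to 1.69 at BCAT2. The coefficient of variation was larger in wild type than in cfm6-1 for 9 of the 10 members, MCCA being the exception, against 45.4% of tested loci, with medians of 9.76% and 5.09%. Summed over the members, the level was 503, 548 and 646 RPKM in wild type and 231, 218 and 209 in cfm6-1. Without wild type replicate 3, the log2 difference of BCAT2 was -2.37 and all 8 genes were still called. Each of the 6 leaf and shoot markers had its lowest wild type level in replicate 3, and SEN1 its highest, at 747 RPKM, while the sum of the other senescence markers was highest in replicate 2; their part in this spread was not tested.

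**Figure D4:**
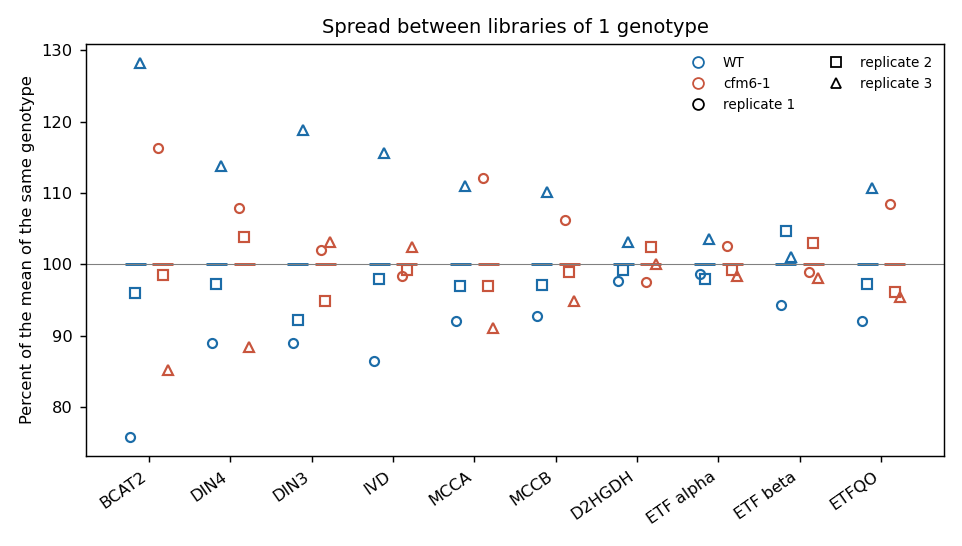
Level of each member in each library as a percent of the mean of the same genotype, with marker shapes for replicates. Wild type replicate 3 is the highest wild type library for the 8 genes that fell, from D2HGDH with little spread to BCAT2 with the most.

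Later steps of the pathway did not move as one. Of 7 listed genes, 2 fell, 4 rose and 1 was not called, and their median log2 difference was 0.21. Among all tested loci, 30.2% were lower and 38.6% higher. ALDH6B2, the methylmalonate semialdehyde dehydrogenase near the end of valine breakdown, fell from 65.9 ± 6.06 to 31.6 ± 1.38 RPKM (limma adjusted p = 2.22e-05). Earlier in the valine branch, CHY1, a 3-hydroxyisobutyryl-CoA hydrolase of peroxisomes, rose 1.24-fold (limma adjusted p = 0.000607). AT4G31810, annotated with the same hydrolase activity in mitochondria, rose 2.35-fold, from 10.7 ± 1.28 to 25.1 ± 0.540 RPKM (limma adjusted p = 2.07e-05), the largest rise of the list. AT4G20930, annotated to valine breakdown, rose 1.47-fold (limma adjusted p = 0.000357). AT2G26800, annotated with the hydroxymethylglutaryl-CoA lyase activity that ends leucine breakdown, fell to 82.8% (limma adjusted p = 0.00112). AT4G16800, annotated with enoyl-CoA hydratase activity in mitochondria, rose 1.17-fold, and ECHIA, an enoyl-CoA hydratase, was not called (limma adjusted p = 0.0106 and 0.509).

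Lysine and phytol breakdown lead to the same carrier. Of 5 listed genes, 2 fell, none rose and 3 were not called. AT1G07040, annotated only as an unknown protein, fell from 73.1 ± 9.46 to 30.7 ± 1.19 RPKM, and ALDH7B4, an aldehyde dehydrogenase, to 75.3% of wild type (limma adjusted p = 3.38e-05 and 0.00523). The lysine-ketoglutarate reductase locus AT4G33150, which starts lysine breakdown, was at 37.6 ± 5.24 and 34.2 ± 2.62 RPKM (limma adjusted p = 0.324). PAHX, phytanoyl-CoA 2-hydroxylase, was at 73.7 ± 4.84 and 81.5 ± 1.89 RPKM (limma adjusted p = 0.0554).

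**Figure D5:**
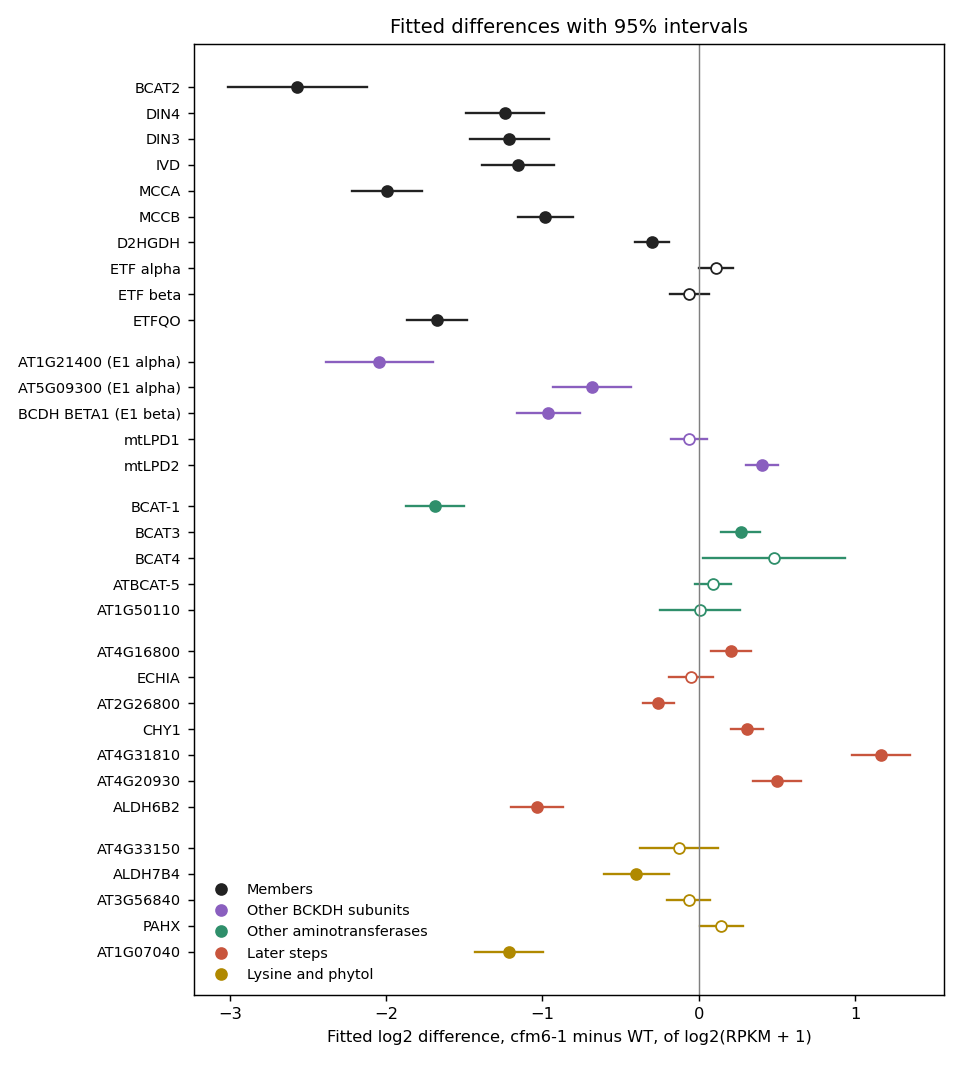
Fitted log2 difference between cfm6-1 and wild type, on the log2(RPKM + 1) scale, with its 95% interval, for the 10 members and 4 lists of genes around them; filled points passed a limma adjusted p of 0.05. The members from BCAT2 to MCCB and ETFQO lie between -2.57 and -0.98, while the later steps spread on both sides of 0 up to 1.17.

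Synthesis of branched-chain amino acids, which takes place in plastids, was split, with 3 of 15 listed genes lower, 8 higher and 4 not called (median log2 difference 0.29). The shares over all tested loci were 30.2% lower and 38.6% higher. AT2G31810, an acetolactate synthase small subunit, fell to 49.9% of wild type (limma adjusted p = 4.50e-05), and MAML-4, annotated as the isopropylmalate synthase IPMS1, to 70.5% (limma adjusted p = 0.000508). AT3G23940, a dehydratase family gene, rose 1.66-fold and OMR1, the threonine deaminase that starts isoleucine synthesis, 1.58-fold (limma adjusted p = 0.000188 and 0.000316).

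Breakdown of other amino acids was lower for most genes: 13 of 19 fell, 6 rose and none was left uncalled (median log2 difference -0.80). Over all tested loci the shares were 30.2% lower and 38.6% higher. THA1, a threonine aldolase, fell to 12.5% of wild type, from 38.6 ± 13.5 to 4.82 ± 0.206 RPKM (limma adjusted p = 4.23e-05), below the share left of BCAT2. PDS1, the 4-hydroxyphenylpyruvate dioxygenase of tyrosine breakdown, fell to 33.9%, and HGO, the homogentisate dioxygenase after it, to 50.6% (limma adjusted p = 1.73e-05 and 3.76e-05); the multiply mapped share at HGO was up to 0.137. ALDH12A1, of proline breakdown, rose 1.54-fold (limma adjusted p = 4.74e-05), with a multiply mapped share of up to 0.219. ERD5 and AT5G38710, also listed for proline breakdown, were among the genes that fell, so the listed genes of that pathway differed in direction.

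Peroxisomal beta-oxidation of fatty acids differed in direction, with 6 of 9 genes higher, 2 lower and 1 not called (median log2 difference 0.23). Among all tested loci, 38.6% were higher and 30.2% lower. The acyl-CoA oxidases ACX1 and ACX2 rose 1.41-fold and 1.40-fold, the multifunctional protein MFP2 1.29-fold, and the short-chain oxidase ACX4 fell to 75.3% of wild type (limma adjusted p between 0.000371 and 0.00153).

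Transcription factors of the C and S1 bZIP groups and the SnRK1 kinases, known for driving amino acid breakdown genes at low energy, were the last list. Of 11 genes, 6 fell, 2 rose and 3 were not called (median log2 difference -0.49), against 30.2% lower and 38.6% higher over all tested loci. BZO2H3, also named bZIP63, fell from 68.8 ± 1.96 to 26.3 ± 0.313 RPKM (38.2% of wild type, limma adjusted p = 1.42e-06). BZIP9 and BZIP25 fell to 56.2% and 67.4% (limma adjusted p = 2.47e-05 and 0.000126). bZIP2 fell to 63.2% (limma adjusted p = 0.000158), but a multiply mapped share of up to 1 makes its level uncertain, as for the other S1 genes of the list.

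For DIN4, MCCA, MCCB, D2HGDH and ETFQO, the authors' deposited table held adjusted p-values of 0.0141 to 0.0411, with log2 fold changes from -2.07 to -0.37. The authors' deposited table gave BCAT2, DIN3 and IVD log2 fold changes of -2.73, -1.31 and -1.24 there and adjusted p-values of 0.0853, 0.0708 and 0.0662, above the 0.05 used here. Multiply mapped shares were at most 0.0796 among the members, at BCAT2. Gene models of 8 members overlapped a neighbour on the other strand by 9 to 348 bases in the reference annotation, and whether counting used strand is not stated. The neighbour of MCCA with 300 shared bases, AT1G03100, had 1.09 to 1.23 RPKM in wild type libraries and 2.58 to 2.72 in the mutant, opposite in direction to MCCA and far below it. The neighbour of ETF beta with 65 shared bases, AT5G43440, was at 40.6 to 42.5 and 24.2 to 26.9 RPKM.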

How the data were processed

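RNA from whole seedlings was sequenced as 100-base single-end reads, per the labels' protocols, and TAIR 10 is the genome build named by the submitters' processing notes; aligner, counter and annotation were not stated. The authors deposited RPKM with 2 decimals, read as such because RPKM times length and depth gives whole reads, and a fraction per locus named as the maximal multiply mapped share. A second deposited table holds gene model length, p-values and a log2 fold change (base read from the sizes, given only at unadjusted p up to 0.05); its sign is that of library codes, and 6 columns and 6 mapping rows under these codes were not used.

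Depth was the value between 20 and 80 M reads at which RPKM times length was closest to whole reads for uniquely mapped genes shorter than 0.3 kb; 383 to 443 values were used in each library, and 100% lay 0.1 reads or less from a whole number. Rebuilt reads summed to 44.1 to 49.2 M per library and numbered 859 to 18617 per member and library. Replicates differed by more than sampling noise (chi-square per degree of freedom 10.5 to 25.1). limma 3.58.1 in R 4.3.3 was fitted to log2(RPKM + 1) with a trended prior variance and genotype as factor. Its p-values were adjusted by Benjamini-Hochberg over the 20047 loci that reached 1 RPKM in 3 or more libraries. The fit was tested on simulated data with spreads shuffled across loci. That run cannot show how well the trended prior suits these data. Ratios between members were compared by exact permutation (scipy 1.17.1). P-values measure the spread between these libraries.

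Names came from RefSeq TAIR10.1, which held all 109 listed loci. The deposited files hold no coordinates; those given, and the upstream windows, are those of RefSeq TAIR10.1. Members, lists and alternatives were chosen with earlier results of these data known. Named genes were all members, any gene of the 4 nearest lists, and up to 4 genes of each other list in order of adjusted p. ERD5 and AT5G38710 were named besides, for the direction of proline breakdown. The target locus and marker lists are given as levels. Alternatives were another pseudocount, filters, scalings, a replicate block, limma-voom on rebuilt reads and each library left out. Pairing by replicate number was not used.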

Additional observations from a re-analysis of the deposited data

How the results depend on the processing

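The 8 genes called lower kept their direction and their call in each of the 13 alternatives, with log2 differences from -2.75 to -2.37 for BCAT2, -2.08 to -1.92 for MCCA, -1.76 to -1.60 for ETFQO and -0.38 to -0.28 for D2HGDH. The count of members called lower was 8 in each but quantile normalization, where ETF beta was added (-0.13, limma adjusted p = 0.0381) and the count was 9; no alternative called a member higher. Over all tested loci, 6063 were lower and 7736 higher, against 3696 and 4812 with a filter at 10 RPKM, where 11532 loci were tested. With a replicate block 5832 were lower and 7423 higher, and no member changed its call. Deviations of same-numbered libraries from their genotype means had correlations of 0.03, -0.14 and -0.002 for numbers 1 to 3. Those of differently numbered libraries ran from -0.09 to 0.11. With means of 3 libraries, such correlations cannot show whether the numbers pair the libraries. Leaving out 1 library in turn gave 5491 to 5734 lower and 7068 to 7464 higher loci. For DIN4 over DIN3 the log2 difference of -0.03 ran from -0.092 to 0.077 with 1 library left out and turned positive without wild type replicate 2 (0.007) and without cfm6-1 replicate 3 (0.077); the cause was not tested. The other 4 ratios kept their direction in all 8 alternatives run for each. With 3 libraries a genotype, an exact test of a ratio cannot go below p = 0.1, and a pseudocount of 1 understates changes of low genes.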
